A study of Mus musculus with 6 samples.

Results

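The 9 genes described here belong to the endothelin and Dlx pathway that patterns the lower jaw: the transcription factor genes Dlx1, Dlx2, Dlx3, Dlx4, Dlx5 and Dlx6, the ligand gene Edn1, the ligand-processing enzyme gene Ece1 and the target gene Gsc. They were chosen by name, and each was read by the probe set that carries its symbol alone. All 9 were measured, each by 1 such probe set, among 19938 genes in all. Expression was measured on Affymetrix Mouse Gene ST 1.0 arrays in mandibular arches, the lower-jaw part of the first pharyngeal arch, dissected from C57BL/6 mouse embryos at embryonic day 9.5. Tbx1-/- embryos (called Tbx1 null, 3 arrays) were compared with Tbx1+/+ embryos (called wild type, 3 arrays). The RNA was pooled from 3 embryos of a genotype, and it is not stated whether the arrays of a genotype had separate pools. The p-values therefore measure only the spread between these arrays, which may be technical. The labels name no other allele, agent or treatment in either genotype and do not say how the null allele was made.

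Endothelin-1 is secreted by the arch epithelium and the mesodermal core and acts on neural crest cells that carry the endothelin A receptor, which signals through Gq proteins and phospholipase C. In mouse embryos this signal maintains Dlx5 and Dlx6 in the lower part of the arch, and these in turn are needed for Dlx3, Dlx4, Hand2 and other genes of the lower jaw. Dlx1 and Dlx2 are expressed along the whole arch, upper jaw included, so that nested combinations of Dlx genes mark position between the upper and lower jaw. Loss of the ligand, of the receptor, or of Dlx5 and Dlx6 together gives the mouse lower jaw features of the upper jaw. The comparison asks whether these genes depend on Tbx1, which encodes a T-box transcription factor made in arch epithelia and core mesoderm but not in neural crest.

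Values are log2 expression levels on arrays normalised together with RMA, and changes are Tbx1 null minus wild type. A gene was called when its limma p, adjusted by Benjamini-Hochberg over all 19938 genes, was under 0.05, and 32 genes were. Of these, 17 were higher and 15 lower, against 12 higher and 22 lower after another round of quantile normalisation. At an unadjusted limma p under 0.05, 1097 genes were higher and 786 lower, which became 899 and 1419 with that second normalisation and 931 and 1081 with each array centred on its median. Tbx1 itself lay between 9.39 and 9.63 in Tbx1 null and between 11.31 and 11.64 in wild type (log2 change -1.94, SE 0.10, limma adjusted p = 0.000684). The median SE of a change over all genes was 0.0579, and with no background probes at hand, how far a signal stood above background is unknown. Levels of different genes come from different probe sets and are not set against each other. The 6 markers fixed for crest mesenchyme, the tissue in which Dlx genes act, had mean log2 levels of 11.89 to 12.00 over the Tbx1 null arrays and 11.86 to 11.88 over the wild-type arrays. Wild type replicate 1 differed most from its own group in several genes below, and some of the results that it moved are given with and without it.

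None of the 9 genes was called. The pairs Dlx1 and Dlx2, and Dlx5 and Dlx6, as well as Edn1 and Ece1, had log2 changes between -0.13 and 0.07. Gsc stood lower on every Tbx1 null array than on any wild-type array but did not pass the threshold. Dlx3 and Dlx4 varied too much among the wild-type arrays for a small change to be seen. In an extract of whole arches, fewer cells of a type and less RNA per cell cannot be told apart.

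**Figure D1:**
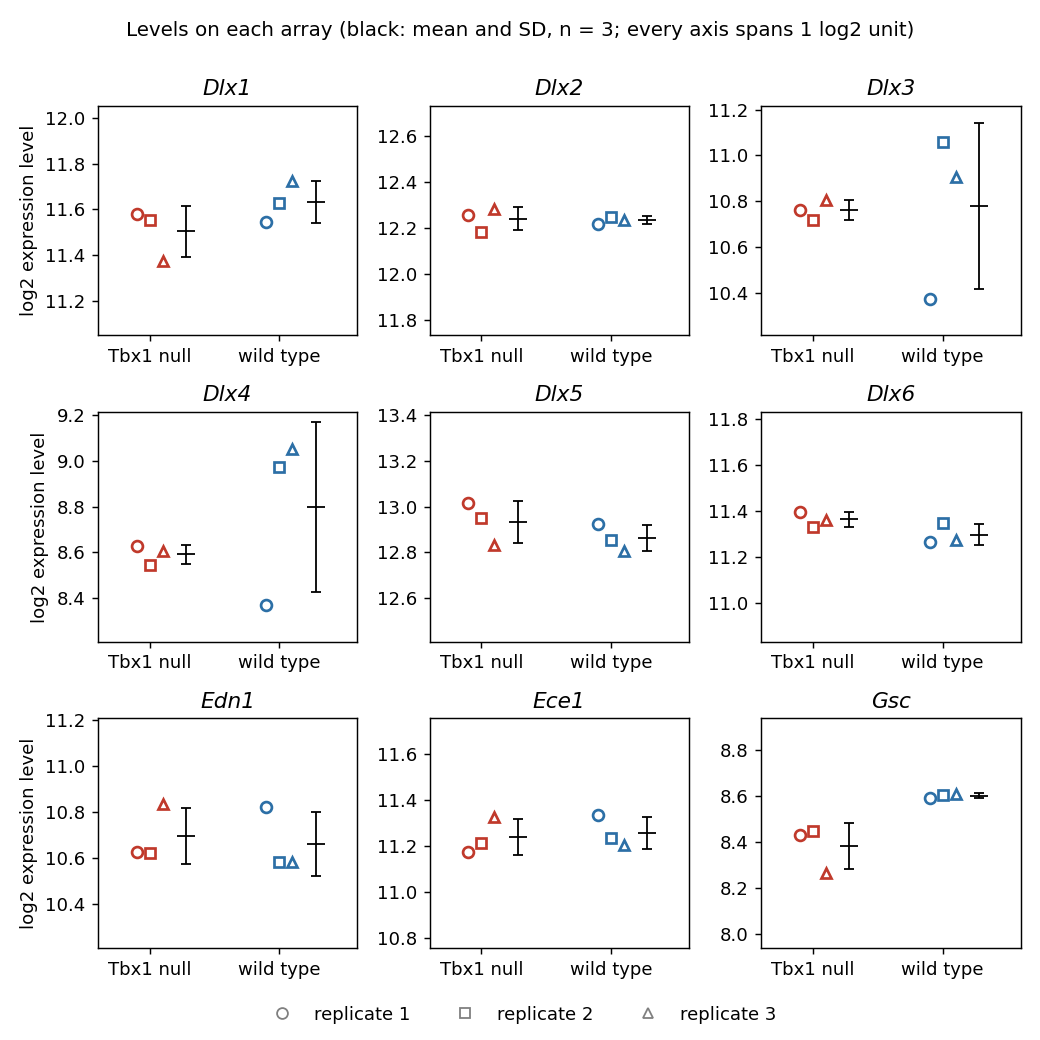
Log2 expression level of the 9 genes on each array, Tbx1 null at the left and wild type at the right of each panel, with the replicate number shown by the symbol and the mean and SD of 3 arrays in black. The arrays separate by genotype for Gsc alone, and wild type replicate 1 lies below the other wild-type arrays for Dlx3 and Dlx4. It is also the lowest wild-type array, by less, for Dlx1, Dlx2, Dlx6 and Gsc.

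The 6 Dlx genes lie in 3 pairs of neighbours, with 0 protein-coding genes between the members of a pair in the RefSeq gene table, and share the distal-less class of homeodomain. Dlx5 and Dlx6 are the pair most directly under endothelin control in mouse. Dlx5 (probe set 10543058) had log2 levels of 13.01, 12.95 and 12.83 on Tbx1 null replicates 1, 2 and 3, against 12.92, 12.86 and 12.81 on the wild-type replicates. The ranges overlapped, and the replicates of each genotype spread over more than the genotypes differed. The log2 change was 0.07 (SE 0.06, 95% confidence interval -0.07 to 0.21, limma adjusted p = 0.790). Dlx6 (probe set 10536353) read 11.40, 11.33 and 11.36 in Tbx1 null and 11.27, 11.35 and 11.28 in wild type. Again the groups overlapped, through wild type replicate 2, with a log2 change of 0.07 (SE 0.05, limma adjusted p = 0.722). Its interval, as a ratio of Tbx1 null over wild type, ran from 0.973 to 1.13. For Dlx5 the ratio's interval ran from 0.954 to 1.16.

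Dlx1 and Dlx2 are the pair expressed in both the upper and the lower jaw primordia, and their joint loss in mice affects the upper jaw most. Dlx2 (probe set 10483626) had log2 levels of 12.26, 12.18 and 12.28 in Tbx1 null and 12.22, 12.25 and 12.24 in wild type. The wild-type values lay inside the Tbx1 null range. The change was 0.0070 (SE 0.04, limma adjusted p = 0.979), with a ratio interval of 0.935 to 1.08, the narrowest of the 9 genes. Dlx1 (probe set 10472809) had 11.58, 11.56 and 11.38 in Tbx1 null against 11.55, 11.63 and 11.73 in wild type. Tbx1 null replicate 3 was the lowest array and wild type replicate 3 the highest, while the other 4 arrays lay close together. The log2 change of Dlx1 was -0.13 (SE 0.07, 95% confidence interval -0.29 to 0.04, limma adjusted p = 0.645).

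Dlx3 and Dlx4 mark the most ventral, or distal, part of the mandibular arch in the mouse. Dlx3 (probe set 10380501) had log2 levels of 10.76, 10.72 and 10.81 in Tbx1 null and of 10.37, 11.06 and 10.91 in wild type. The Tbx1 null arrays lay within a narrow band, with wild type replicate 1 below it and wild type replicates 2 and 3 above it. Dlx4 (probe set 10390147) had the same order, with 8.63, 8.55 and 8.60 in Tbx1 null and 8.37, 8.97 and 9.05 in wild type. Their changes were -0.02 (SE 0.16, limma adjusted p = 0.986) and -0.21 (SE 0.16, limma adjusted p = 0.765), with intervals from -0.38 to 0.35 for Dlx3 and from -0.58 to 0.17 for Dlx4. Without wild type replicate 1, the change of Dlx4 was -0.42 (SE 0.05, limma adjusted p = 0.0810) and that of Dlx3 -0.22 (SE 0.06, limma adjusted p = 0.344), still not past the threshold. Without wild type replicate 2 or 3, the change of Dlx4 was -0.12 and -0.08. Without wild type replicate 2 or 3, or without Tbx1 null replicate 2, the change of Dlx3 was above 0, at 0.12, 0.05 and 0.0044.

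Among the wild-type arrays, 6 of the 9 genes were lowest on replicate 1, 0 on replicate 2 and 3 on replicate 3, and 3 were highest on each replicate. Of the 14 ventral and intermediate genes described further on, 8 were lowest among the wild-type arrays on replicate 1, 5 on replicate 2 and 1 on replicate 3. In that list 4 (Alx4, Vgll2, Nkx3-2 and Rgs5) were highest on replicate 1. Barx1, a homeobox gene of jaw mesenchyme, read 11.90 on wild type replicate 1 against 12.77 and 12.74 on wild type replicates 2 and 3. Foxf1, a forkhead gene of the distal arch, read 10.34 there against 11.38 and 11.50. The log2 change of Foxf1 was 0.69 (SE 0.30, limma adjusted p = 0.530) with all arrays and 0.32 (SE 0.16) without wild type replicate 1. The 3 measured markers of migratory crest and glia went the other way, with a mean log2 level of 9.60 on wild type replicate 1 against 8.80 and 8.96 on the others. So did other lists: highest on replicate 1 were 9 of 11 endothelin pathway genes, 4 of 5 core mesoderm and 5 of 7 epithelial markers. Against these stood 2 of 6 crest mesenchyme, 4 of 8 endothelial and 3 of 6 primitive erythroid markers, and 3 of 8 dorsal arch genes. The share of all genes lowest or highest on replicate 1 was not computed. The part of the list genes in the Dlx3 and Dlx4 values was not tested.

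**Figure D2:**
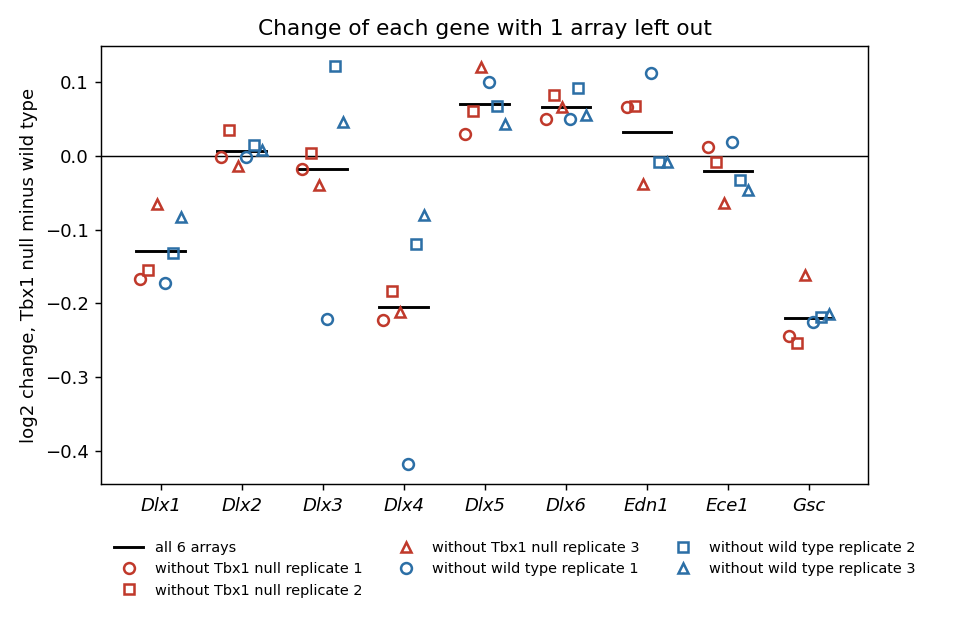
Log2 change of each of the 9 genes (Tbx1 null minus wild type) with all 6 arrays (black line) and with 1 array left out (red symbols for a Tbx1 null array, blue for a wild-type array, shape for the replicate number). Leaving out wild type replicate 1 moved Dlx4 to -0.42 and Dlx3 to -0.22, while Gsc lay between -0.25 and -0.16 in every such fit.

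Edn1 encodes the ligand and Ece1 the membrane protease that cuts its precursor to the active peptide. Edn1 (probe set 10404783) had log2 levels of 10.63, 10.62 and 10.84 in Tbx1 null and of 10.82, 10.58 and 10.58 in wild type. In each genotype 1 array stood above the others, Tbx1 null replicate 3 and wild type replicate 1. The log2 change was 0.03 (SE 0.09, limma adjusted p = 0.949), and the ratio's interval ran from 0.889 to 1.18. Ece1 (probe set 10509441) read 11.17, 11.21 and 11.33 in Tbx1 null against 11.34, 11.23 and 11.20 in wild type, with the same arrays of each genotype highest. Its change was -0.02 (SE 0.06, limma adjusted p = 0.955), with a ratio interval of 0.897 to 1.08. Ece1 is also made by endothelium, and the 8 endothelial markers had mean log2 levels of 10.38 to 10.60 over the Tbx1 null arrays and 10.49 to 10.52 over the wild-type arrays, with 0 of 8 past an unadjusted limma p of 0.05.

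Gsc encodes goosecoid, a paired-class homeodomain repressor whose arch expression needs endothelin signalling in mouse and which is required for parts of the mouse lower jaw and middle ear. Gsc (probe set 10402440) had log2 levels of 8.43, 8.45 and 8.27 on Tbx1 null replicates 1, 2 and 3, against 8.59, 8.60 and 8.61 on the wild-type replicates. The groups did not overlap, and the Tbx1 null arrays spanned 0.18 where the wild-type arrays spanned 0.02. The log2 change was -0.22 (SE 0.06, 95% confidence interval -0.35 to -0.09), or 1.16-fold lower. Its unadjusted limma p was 0.00566 and its limma adjusted p over all genes 0.263, so it was not called. With any 1 array left out the limma adjusted p lay between 0.291 and 0.529.

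In count, 0 of the 9 genes passed the adjusted threshold, where 0.16% of all genes did. At an unadjusted limma p under 0.05 there was 1 of 9, Gsc, where 9.44% of all genes passed. Without wild type replicate 1 there were 3 of 9, Dlx3, Dlx4 and Gsc, where 9.7% of all genes passed. Arrays of the genotypes did not overlap for 1 of 9, again Gsc, where 15.4% of all genes showed no overlap. With all 6 arrays, these shares are near those of all genes. The median log2 change of the 9 was -0.02, beside -0.0061 over all genes, and their median absolute change was 0.07, beside 0.05 over all genes. For scale, 90% of all genes had changes between -0.14 and 0.16, and of the 9 only Gsc and Dlx4 lay outside that range.

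**Figure D3:**
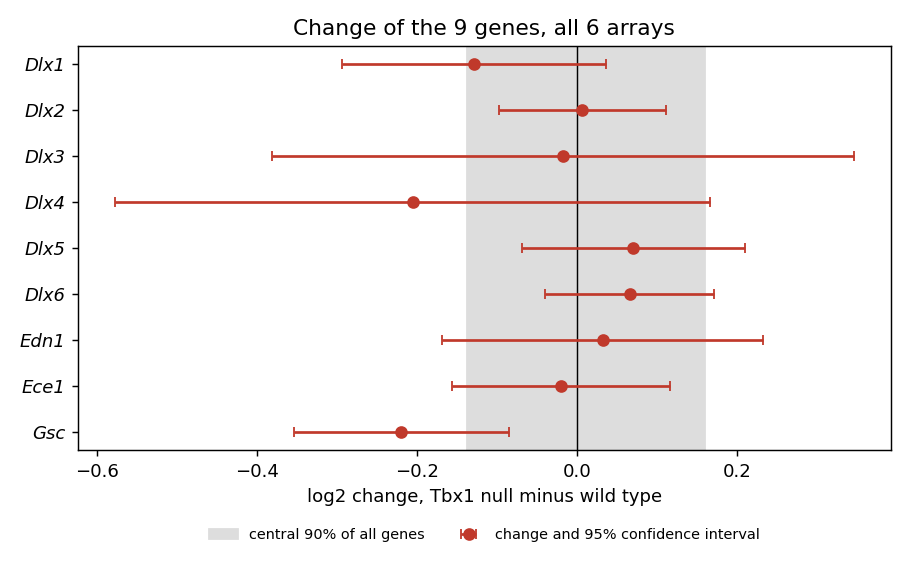
Log2 change (Tbx1 null minus wild type) of the 9 genes with 95% confidence intervals from limma, over a grey band that holds the central 90% of changes of all genes (-0.14 to 0.16). Only the interval of Gsc (-0.35 to -0.09) leaves out 0, and the intervals of Dlx3 and Dlx4 are the widest.

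Promoter sequences are shown for the ligand gene and for the member with the clearest separation of arrays, as the context in which these genes are regulated. The RefSeq promoter table for GRCm38.p6 matched 5 of the 9 genes (Dlx1, Dlx2, Edn1, Ece1 and Gsc). The 250 bases before each annotated start were searched on both strands for 3 motifs. The first, TCACAC, is the core of a site for T-box proteins such as Tbx1. The second, TAATTA, is a core bound by many homeodomain proteins, those of the Dlx family included. The third is the TATA box, written as TATAAA. No matches overlapped in these windows. The upstream stretches are written 5′ to 3′ along the gene, with capitals for a match.
Gsc, chr12:104473237-104473486, minus strand: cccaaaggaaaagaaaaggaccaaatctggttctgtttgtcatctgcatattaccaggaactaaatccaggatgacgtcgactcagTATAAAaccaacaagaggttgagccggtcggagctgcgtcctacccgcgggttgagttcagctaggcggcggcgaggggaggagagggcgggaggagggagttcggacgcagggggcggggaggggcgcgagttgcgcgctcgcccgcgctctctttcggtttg
Edn1, chr13:42301226-42301475, plus strand: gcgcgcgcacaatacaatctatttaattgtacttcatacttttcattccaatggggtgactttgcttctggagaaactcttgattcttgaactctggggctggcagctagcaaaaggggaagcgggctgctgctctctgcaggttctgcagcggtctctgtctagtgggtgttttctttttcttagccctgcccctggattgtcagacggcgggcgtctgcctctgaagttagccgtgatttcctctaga
Gsc held 1 TATAAA, 164 bases before the annotated start, and Edn1 held no match. Neither the T-box nor the homeodomain core was found in any of these windows of the 5 genes, Ece1's 4 annotated starts included. Over the 32851 promoters of the table, the shares with a match were 12.3% for the T-box core, 4.84% for the homeodomain core and 12.4% for the TATA box. A match says only that these letters are in this window, not that they work as a site, and an absent match only that they are not there.

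The rest of the endothelin pathway gave no call either. Of 11 measured genes of its ligands, receptors, processing enzymes and transducers, 0 passed the adjusted threshold, and at an unadjusted limma p under 0.05 there were 0 higher and 2 lower, beside 5.5% and 3.94% of all genes. The median log2 change was -0.04, beside -0.0061 over all genes. The receptor gene Ednra is not analysed here. Edn3, the ligand that with the endothelin B receptor supports pigment and enteric crest, read 9.51, 9.47 and 9.36 in Tbx1 null against 9.63, 9.74 and 9.78 in wild type, without overlap. Its log2 change was -0.27 (SE 0.06, limma adjusted p = 0.181). Plcb1, a phospholipase C activated by Gq, also had separate groups, with 8.39, 8.20 and 8.62 in Tbx1 null and 9.16, 8.77 and 8.97 in wild type (log2 change -0.57, SE 0.13, limma adjusted p = 0.181). Genes of Gq-class transducers had log2 changes of 0.01 for Gnaq, -0.0087 for Gna11 and 0.05 for Plcb3, while Plcb4 had -0.29 (SE 0.15) and Mef2c, the MADS-box factor that acts downstream of the receptor in crest, -0.32 (SE 0.19). Without wild type replicate 1 the counts were 2 higher (Ednrb and Furin) and 2 lower, and the changes were -0.09 for Mef2c and -0.15 (SE 0.14) for Plcb4. Without wild type replicate 2 there were 4 lower, and without Tbx1 null replicate 2 there was 1 higher. Of all genes, 9.7% passed that p in either direction without wild type replicate 1. Shares by direction, or for the other fits, were not computed, so these moved counts cannot be set against them.

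Genes of the ventral and intermediate arch, only some of which depend on endothelin, Dlx5 and Dlx6 or BMP signals, gave 1 call among 14 measured, where 0.16% of all genes were called. It was Msx2, a homeobox gene induced by BMP. It rose, with 12.21, 12.17 and 12.18 in Tbx1 null and 11.73, 11.86 and 11.81 in wild type (log2 change 0.39, SE 0.05, limma adjusted p = 0.0422), and it did not pass with any 1 array left out, where its change lay between 0.35 and 0.42 and its limma adjusted p between 0.0865 and 0.205. At an unadjusted limma p under 0.05 there were 6 higher and 2 lower, beside 5.5% and 3.94% of all genes, and the median log2 change was 0.23, beside -0.0061 over all genes. The list was chosen with earlier results of these data known, so its counts and median describe it and are no test of it. Hand2, the bHLH gene that is the best known target of endothelin and Dlx5 and Dlx6 in the ventral arch, read 11.50, 11.50 and 11.26 in Tbx1 null and 10.45, 11.03 and 11.10 in wild type. The groups did not overlap, and wild type replicate 1 was again the lowest array. Its log2 change was 0.56 (SE 0.16, limma adjusted p = 0.326), and 0.36 (SE 0.08) without that array. Its relative Hand1 had a change of 0.50 (SE 0.10, limma adjusted p = 0.157), and Msx1, Pitx1 and Alx4, homeobox genes of arch mesenchyme and oral ectoderm, had 0.44, 0.33 and 0.22.

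The lower genes of that list were Gbx2 and Vgll2. Gbx2, a homeobox gene that needs Dlx5 and Dlx6 in the mouse arch, read 9.18, 9.23 and 8.92 in Tbx1 null against 9.12, 9.74 and 9.70 in wild type. Wild type replicate 1 lay among the Tbx1 null arrays. The log2 change of Gbx2 was -0.41 (SE 0.16, limma adjusted p = 0.482), and -0.61 (SE 0.10, limma adjusted p = 0.115) without that array. Vgll2, a cofactor of TEAD transcription factors, had a change of -0.25 (SE 0.09, limma adjusted p = 0.441), and -0.17 (SE 0.08, limma adjusted p = 0.592) without wild type replicate 1. Barx1 had a change of 0.02 (SE 0.22) with all arrays and -0.27 (SE 0.08, limma adjusted p = 0.366) without wild type replicate 1. The count of 2 lower genes became 3 without wild type replicate 1 (Gbx2, Barx1 and Cited1, but not Vgll2), 0 without Tbx1 null replicate 1 and 1 without Tbx1 null replicate 2 or 3 or wild type replicate 2 or 3. The share of all genes that were lower at that p was not computed for these fits.

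Genes of the dorsal arch are expressed toward the upper jaw, and in mouse several of them are held down ventrally by endothelin and by Dlx5 and Dlx6. Of 8 measured, 0 passed the adjusted threshold, 5 were lower and 1 was higher at an unadjusted limma p under 0.05, beside 3.94% and 5.5% of all genes, and the median log2 change was -0.21, beside -0.0061 over all genes. As this list too was chosen with earlier results of these data known, these values are no test of it. Pou3f3, a POU-domain gene of the upper jaw primordium, read 7.81, 8.02 and 7.94 in Tbx1 null against 8.27, 8.57 and 8.68 in wild type. No Tbx1 null array reached the wild-type range, and the change was -0.58 (SE 0.11, limma adjusted p = 0.119). The nuclear receptor gene Nr2f1 also separated the groups, with 10.69, 10.59 and 10.72 in Tbx1 null and 11.06, 10.95 and 10.99 in wild type (log2 change -0.33, SE 0.05, limma adjusted p = 0.0798). The forkhead gene Foxl2 had -0.37 (SE 0.07), Nr2f2 -0.23 (SE 0.06) and the Notch target Hey1 -0.20 (SE 0.07). The exception among genes past that p was Notch2, a Notch receptor gene, with 0.27 (SE 0.08, limma adjusted p = 0.327). Leaving out any 1 array moved neither count of this list by more than 1.5 times, though shares of all genes by direction were not computed for those fits.

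**Figure D4:**
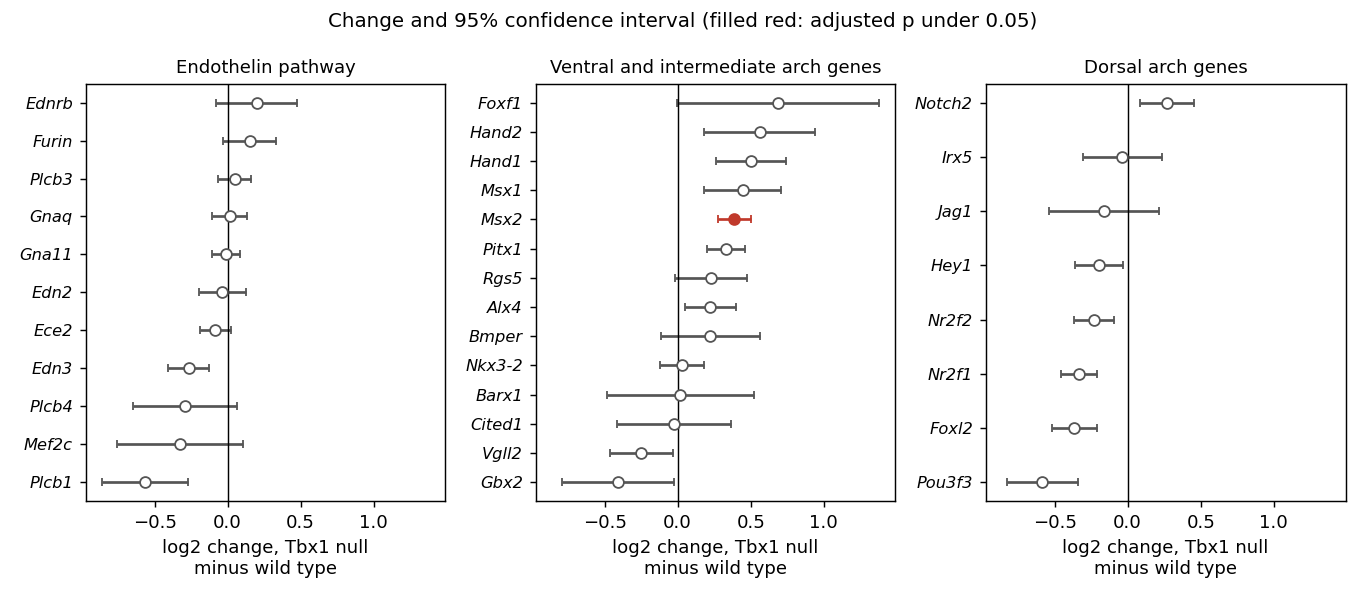
Log2 change (Tbx1 null minus wild type) with 95% confidence intervals for the measured genes of the endothelin pathway, the ventral and intermediate arch and the dorsal arch, sorted within each panel. Msx2 is the only gene past an adjusted p of 0.05, the ventral panel has a median of 0.23 and the dorsal panel one of -0.21.

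Levels of some cell type markers also differed between the genotypes, but none was called, the lowest limma adjusted p being 0.0509 (Myf5, core mesoderm). Counts of the markers at an unadjusted limma p under 0.05 stand beside 5.5% of all genes higher and 3.94% lower. Their lists too were chosen with earlier results of these data known. Of the 6 crest mesenchyme markers, 2 were higher at that p, Prrx2 with a log2 change of 0.23 (limma adjusted p = 0.116) and Prrx1 with 0.19 (limma adjusted p = 0.297). The rest did not pass it, with 0.16 for Snai2, 0.04 for Pdgfra, -0.05 for Twist1 and -0.10 for Tfap2a. Arrays of the genotypes did not overlap for 3 of the 6, all higher in Tbx1 null, where 15.4% of all genes showed no overlap. The 2 markers of second-arch crest, Hoxa2 and Hoxb2, had mean log2 levels of 8.15 to 8.66 over the Tbx1 null arrays against 7.50 to 7.58 over the wild-type arrays. All 6 primitive erythroid markers were lower at an unadjusted limma p under 0.05, with mean levels of 10.11 to 10.21 in Tbx1 null and 10.41 to 10.49 in wild type. Of 5 core mesoderm markers 3 were lower and 1 higher at that p, with means of 8.90 to 9.10 in Tbx1 null and 9.19 to 9.42 in wild type. Epithelial markers, which cover cells that make Edn1, had 3 of 7 higher, with means of 11.63 to 11.77 in Tbx1 null and 11.48 to 11.63 in wild type. Their part in the values of Gsc, Dlx3, Dlx4 and the ventral and dorsal genes was not tested.

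Profiles over the 6 arrays, each centred on its own mean, were compared by their root mean square difference on the log2 scale. Nearest to Gsc were Slc38a5 (0.0266), Olfr10 (0.0291) and Mir146b (0.0295), where the profile of Gsc itself had a spread of 0.124. The closest to Edn1 were Creb3l2 (0.0196), Trim3 (0.0231) and Pam (0.0235), and to Dlx5 they were Cntnap3 (0.00735), Crb1 (0.0172) and Nxph3 (0.0207). With 6 arrays and 19938 genes, small differences of this kind arise for many genes, and the arrays share their normalisation.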

How the data were processed

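The authors deposited 1 log2 value for each probe set and array. These were computed by RMA, and the tool named for it in the submitters' processing notes is Affymetrix Expression Console 1.1. RMA corrects background, equalises the arrays and summarises probes, and therefore hides any shift common to most genes. RNA for labelling was 300 ng per array, per the labels' protocols. Of 35556 probe sets, 21789 had 1 symbol in the platform annotation, 1621 several and 12146 none. A RefSeq gene table (GRCm38.p6) matched 21698 of the single symbols through their Entrez ID and changed 0. Each gene was read by its brightest probe set over the 6 arrays. The table held 0 columns of other samples, and 0 pairs of arrays were identical.

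The test was limma (version 3.58.1, R 4.3.3) with genotype as the only term, two-sided, adjusted by Benjamini-Hochberg over 19938 genes, with a threshold of 0.05. On simulated data the fit recovered 27 of 50 genes changed 1.25-fold and 48 of 50 changed 1.5-fold, for Tbx1 null against wild type over 19938 genes. The simulated noise was independent between arrays, with variances drawn from limma's prior, so it held no deviation shared by many genes of 1 array. In the real data Hand2 (1.48-fold higher) and Pou3f3 (1.50-fold lower) were not called, so the simulated recovery need not hold for the genes described here. The 9 genes and the lists were chosen with earlier results of these data known. Named genes were the 9, Tbx1, Hand1, Hand2, Barx1 and Ednra, list genes at an adjusted or unadjusted p under 0.05, and the 3 nearest profiles to Gsc, Edn1 and Dlx5. Others named (such as Foxf1, Mef2c, Plcb4, Gnaq, Gna11, Plcb3, Ednrb, Furin, Cited1, Nkx3-2 and Rgs5) were chosen after their values were seen. Alternatives were a replicate block, leaving out each array, other scalings, filters on dim genes, other variance estimates, array weights, and other ways to read probe sets.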

Additional observations from a re-analysis of the deposited data

How the results depend on the processing

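Over 134 refits of the 9 genes under the alternatives, 0 brought one past the adjusted threshold, the lowest limma adjusted p being 0.0810 (Dlx4 without wild type replicate 1). Dlx1, Dlx4, Dlx5, Dlx6 and Gsc kept their direction in every fit that held them. The replicate block, the level filters, the intensity trend with robust estimation and the other probe-set readings left each change at its main value. Those fits therefore could not turn a sign. With 1 array left out Dlx1 ran from -0.17 to -0.065 (lowest in size without Tbx1 null replicate 3, then -0.082 without wild type replicate 3), Dlx4 from -0.42 to -0.079 and Dlx5 from 0.030 to 0.12 (0.030 without Tbx1 null replicate 1, 0.044 without wild type replicate 3, 0.12 without Tbx1 null replicate 3). Changes close to 0 turned sign: Dlx2 (main value 0.0070) was -0.0075 with arrays centred on their medians and -0.015 with array weights, and with 1 array left out it ran from -0.013 to 0.035. With 1 array left out Dlx3 ran from -0.22 to 0.12, Edn1 from -0.038 to 0.11 and Ece1 from -0.064 to 0.019. The number of the 9 at an unadjusted p under 0.05 was 1 in the main setting, 1 to 3 with 1 array left out, 2 with array weights (Dlx4 and Gsc) and 0 without genes below the median level, a filter that drops Gsc. Beside these, 9.44% of all genes passed in the main setting and 9.7% without wild type replicate 1. That share was not computed for the other settings in this count, so their numbers cannot be set against it. The count of all genes called, 32, became 3 to 20 with 1 array left out, 6 with the replicate block, 96 with an intensity trend and robust estimation, 334 with array weights and 4 over every probe set, where more features are tested. Whether the replicate numbers pair the arrays is not settled. Same-numbered arrays had correlations of -0.05, 0.26 and 0.15 between their deviations from the genotype means, and differently numbered arrays -0.37 to 0.25. Deviations of 3 arrays from their own mean are tied to each other, so these correlations cannot decide it. The block left the count of the 9 at 1. Leaving out each array for the counts of the gene lists was chosen after seeing the data. With 3 arrays per genotype, the median SE of 0.0579 limits what small changes can be seen, and signal over background is unknown.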
